A study of Mus musculus with 41 samples.

Results

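The genes described here encode 10 Wnt ligands, Wnt1, Wnt2b, Wnt4, Wnt5a, Wnt5b, Wnt7b, Wnt10a, Wnt10b, Wnt11 and Wnt16, and were taken by gene name from a table of RNA-seq read counts of mouse tibia. All 10 names were found once each among the 43346 genes of the table, and all 10 were among the 19292 genes with enough reads for a test. In old vehicle-treated mice the Wnt1 and Wnt10a genes were higher and the Wnt16 gene was lower than in young mice, and Wnt7b was called higher through a single mouse. The Wnt10a call was lost without 1 mouse and the Wnt16 call with a cartilage covariate. None of the 10 was called different between old mice given AP20187 and old mice given vehicle.

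Wnt ligands are secreted glycoproteins that carry a lipid added by the acyltransferase Porcn and leave the cell with the carrier protein Wls. At the target cell they bind a Frizzled receptor, and ligands such as Wnt1 and Wnt10b, together with the co-receptors Lrp5 or Lrp6, stabilise beta-catenin, whereas Wnt5a, Wnt5b and Wnt11 are best known for signalling without beta-catenin. In bone, beta-catenin signalling in the osteoblast lineage raises bone formation, loss of WNT1 function causes fragile bone, and osteoblast-derived Wnt16 is known for restraining osteoclast formation and maintaining cortical bone.

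The libraries came from tibiae of 41 female mice that carry the p16-INK-ATTAC transgene, in which a p16 (Cdkn2a) promoter fragment drives a caspase 8 fusion protein that the drug AP20187 (AP) dimerises. The 12 young mice are listed as vehicle-treated, but no start or length of treatment is recorded for them. Their listed age is 6 to 12 months, of which the methods of the study name the lower end for its young mice. The 13 old vehicle-treated mice and the 16 old AP-treated mice are listed as 20 months old, with twice-weekly injections for 4 months from that age, so that tissue was taken at about 24 months, and the AP dose was 10 mg/kg. All 41 mice carry the transgene, the mice are identified by numbers with the prefix JF, and the labels name no sequencing batch, so that a batch that followed age cannot be told apart from age.

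Total counts per library ranged from 37028959 to 75942717 (median 47774880), and levels are given as CPM, read counts scaled to the TMM-normalised library size. Cdkn2a, whose promoter drives the transgene, had a median of 0.587 CPM in young, 2.20 CPM in old vehicle and 1.10 CPM in old AP mice. It was called higher in old vehicle than in young mice (log2 fold change 2.22 ± 0.43 SE, adjusted p = 0.000332) and missed the threshold between old AP and old vehicle mice (log2 fold change -0.67 ± 0.37 SE, adjusted p = 0.265, edgeR's quasi-likelihood test in both cases). The osteoblast markers (11 of 11) and osteocyte markers (9 of 9) were above 0 in every library. The tissue was tibia diaphysis, centrifuged before RNA extraction to remove marrow, yet markers of muscle and marrow cells were present. The summed level of 14 skeletal muscle markers ran from 9116 to 133279 CPM and that of 10 neutrophil markers from 4903 to 33671 CPM. The muscle sum had a median of 46160 CPM in young and 75343 CPM in old vehicle mice, and 3 of 14 markers were called higher (4.30% of all tested genes were). The B cell sum had medians of 303 CPM and 158 CPM, and 7 of 10 markers were called lower (4.76% of all tested genes were). The osteoblast sum had a median of 69584 CPM in young, 41168 CPM in old vehicle and 32363 CPM in old AP mice, and the cartilage sum a median of 4072 CPM, 1858 CPM and 1632 CPM. Between old vehicle and young mice 4 of 11 osteoblast markers were called lower, and 3 of 14 tested cartilage markers lower and 1 higher. The cartilage sum does not stand for all its markers. The median log2 fold change of the 14 tested was -0.79 between old vehicle and young mice, but 0.65 between old AP and young mice. Between old AP and old vehicle mice it was 1.21, with none called. There 7 of the 14 had an unadjusted p under 0.05 (edgeR's quasi-likelihood test), as did 23.95% of all tested genes. The osteocyte sum had similar medians, 1616 CPM, 1697 CPM and 1786 CPM, but its 9 markers did not all stay level. Sost and Mepe were called higher and Phex lower between old vehicle and young mice. Between old AP and young mice Sost and Mepe were called higher and Phex and Pdpn lower (3.73% and 4.85% of all tested genes were). In such bulk tissue, fewer cells of a type and less RNA per cell cannot be told apart.

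Old AP mice JF18 and JF19 stood apart. Their osteocyte sums were 555 CPM and 621 CPM, the lowest of all 41 libraries. JF19 had the highest neutrophil sum, 33671 CPM, and the lowest skeletal muscle sum, 9116 CPM, of all 41, and JF18 had a T cell sum of 595 CPM, where the highest old vehicle and young mice had 134 and 75.3 CPM. In addition, 1 of these mice was the lowest of the old AP group for 8 of the 10 ligands. Old vehicle mouse JF16 was the highest of its group for 4 ligands (Wnt4, Wnt5a, Wnt7b and Wnt11) and had the lowest neutrophil sum of its group, 4903 CPM. Most results that rest on these mice are given with and without them. Spearman's rho and the r within old AP mice alone are given only with JF18 and JF19.

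Levels can be compared between ligands only per length, here as CPM per kb of the gene length in the table. On that scale a few genes made up most of the summed level of the 10 ligands. In young mice Wnt4 had a median of 8.52 CPM per kb (5.2 to 12.3), Wnt5b 8.19 (6.20 to 12.0), Wnt10b 7.08 (4.74 to 9.21) and Wnt16 3.36 (1.81 to 5.70). Wnt4 and Wnt5b were not separated, with Wnt4 above Wnt5b in 5 of 12 young mice, whereas Wnt10b was above Wnt16 in 12 of 12. Together these 4 ligands made up a median of 90.2% of the summed CPM per kb of the 10 ligands in young mice, 85.9% in old vehicle and 86.4% in old AP mice.

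The middle ranks among the 10 ligands were held by Wnt5a with a median of 1.41 CPM per kb in young mice, Wnt1 with 0.553, Wnt11 with 0.540 and Wnt2b with 0.374. Wnt1 and Wnt11 were not separated in young mice, where Wnt1 was above Wnt11 in 4 of 12. Wnt10a and Wnt7b were lowest in young mice, at 0.0638 and 0.0547 CPM per kb. In old vehicle mice the order changed in the middle. Wnt1, at a median of 1.34 CPM per kb, stood close to Wnt16 at 1.48, with Wnt16 above Wnt1 in 8 of 13 mice, and Wnt5a followed at 1.04. In old AP mice Wnt16 had a median of 1.17 CPM per kb and Wnt1 1.09, with Wnt16 above Wnt1 in 8 of 16. The median share of Wnt16 in the summed level of the 10 ligands was 10.1% in young, 5.2% in old vehicle and 4.6% in old AP mice. That of Wnt1 was 1.80%, 4.07% and 4.28%. Wnt9a, a ligand outside the 10, had a median of 2.63 CPM per kb in young, 3.14 in old vehicle and 2.48 in old AP mice. These medians lay above that of Wnt5a in young mice and above that of Wnt16 in both old groups. The gene length given for Wnt10b, 2334 bases, was shorter than its 3401 exonic bases in GENCODE vM21, so that its place beside Wnt5b and Wnt4 depends on the annotation.

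**Figure D1:**
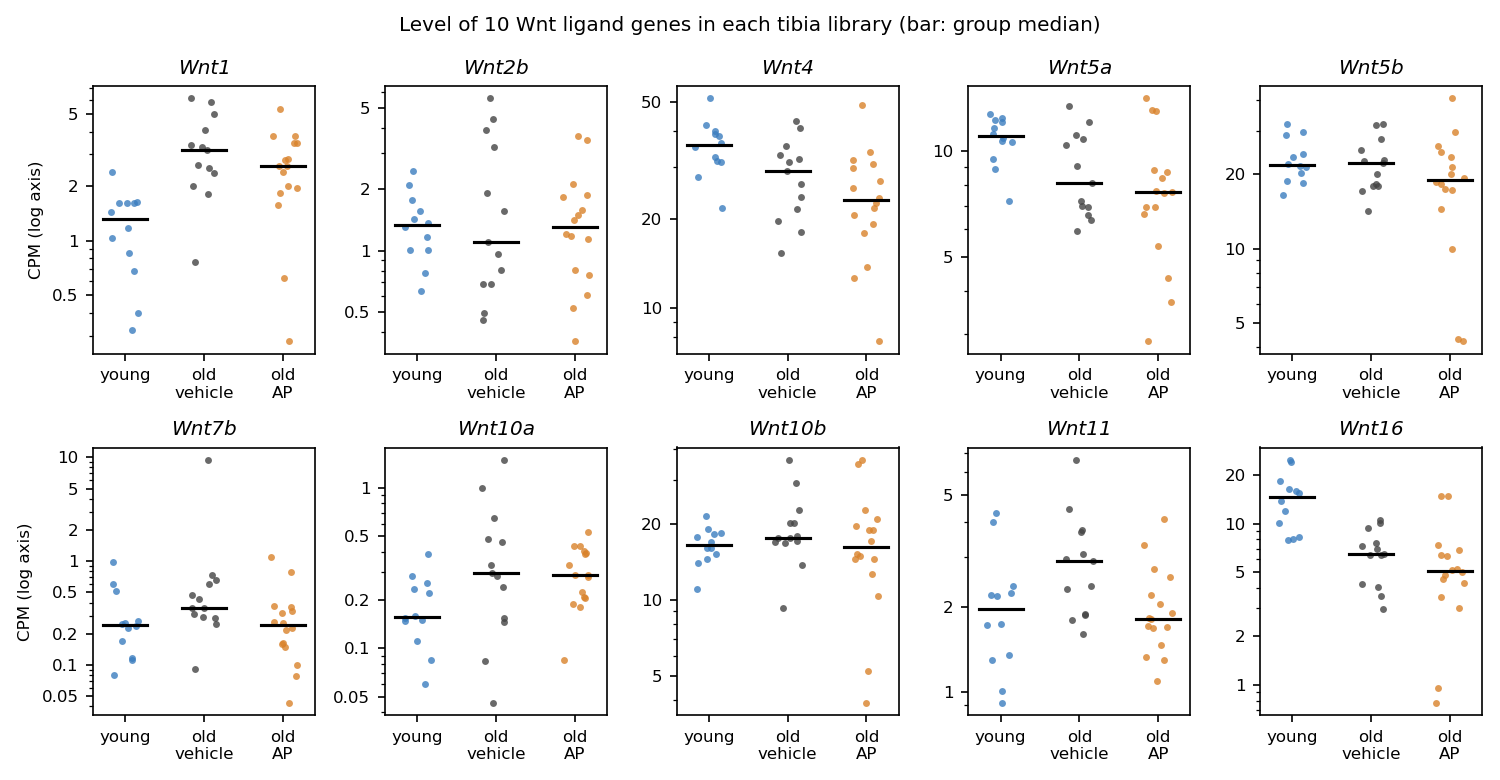
Level of each of the 10 ligand genes in CPM (log axis) in every library, by group (young, 12 mice; old vehicle, 13; old AP, 16), with a bar at the group median. Wnt16 lies lower and Wnt1 higher in both old groups than in young mice, 1 old vehicle mouse holds a Wnt7b level of 9.51 CPM, and the lowest old AP points of Wnt5b, Wnt10b and Wnt16 are mice JF18 and JF19.

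The first comparison asked which ligands differed with age, between old vehicle and young mice. Of the 10 ligands, 3 were called higher (Wnt1, Wnt7b and Wnt10a), where 4.30% of all tested genes were called higher, and 1 was called lower (Wnt16), where 4.76% of all tested genes were called lower. A call required an adjusted p under 0.05 over all tested genes and a log2 fold change beyond 0.5 in either direction, with edgeR's quasi-likelihood test. The median log2 fold change of the 10 ligands was 0.38, against 0.0066 over all tested genes.

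Wnt16 lies on the plus strand at chr6:22288227-22298522 (GRCm38). Its level ran from 7.89 to 24.9 CPM (median 14.7) in young mice, from 2.95 to 10.5 CPM (median 6.44) in old vehicle mice and from 0.776 to 14.8 CPM (median 5.09) in old AP mice. All 13 old vehicle mice were below the young median and 10 of 13 were below the lowest young mouse, although the ranges overlapped. The log2 fold change between old vehicle and young mice was -1.14 ± 0.30 (SE), a level 0.452 times that of young mice, with an adjusted p of 0.00612 by edgeR's quasi-likelihood test. Leaving out any 1 mouse of these groups kept the call, with log2 fold changes of -1.22 to -1.05. With the cartilage sum as a covariate the log2 fold change was -0.88 and the call was lost (adjusted p = 0.0662), and with the osteocyte sum, an alternative chosen after the data were seen, it was -1.39 (adjusted p = 6.88e-06). The part of cartilage content in the difference was not tested.

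Wnt1 lies on the plus strand at chr15:98789857-98793837. Its level ran from 0.321 to 2.38 CPM (median 1.32) in young mice, from 0.763 to 6.13 CPM (median 3.19) in old vehicle mice and from 0.279 to 5.37 CPM (median 2.59) in old AP mice. Of the 13 old vehicle mice, 9 were above the highest young mouse and 12 above the young median, and only mouse JF7 was below it. These levels rest on few reads, 16 to 103 counts per library in young and 39 to 293 in old vehicle mice. The log2 fold change between old vehicle and young mice was 1.42 ± 0.33 (SE), a level 2.68 times that of young mice, with an adjusted p of 0.00175 by edgeR's quasi-likelihood test. The call held in all 25 fits that left out 1 mouse (log2 fold changes of 1.31 to 1.55) and in all 11 other alternatives (1.25 to 1.77).

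The promoters of Wnt16 and Wnt1 are shown with those of Wnt5b and Wnt10b, ligands whose levels varied with theirs from mouse to mouse but that were not called different with age. Each sequence is the 250 bases before the RefSeq start site, 5′ to 3′ on the gene's strand, from GRCm38.p6, at chr6:22287977-22288226 (plus strand) for Wnt16, chr6:119544348-119544597 (minus strand) for the outermost of the Wnt5b starts, chr15:98789607-98789856 (plus strand) for Wnt1 and chr15:98778151-98778400 (minus strand) for Wnt10b. Capitals mark matches on either strand to TGTGGT (RUNX), CTTTGA (TCF/LEF), TGANTCA (AP-1), TATAAA or CCAAT.
Wnt16 promoter: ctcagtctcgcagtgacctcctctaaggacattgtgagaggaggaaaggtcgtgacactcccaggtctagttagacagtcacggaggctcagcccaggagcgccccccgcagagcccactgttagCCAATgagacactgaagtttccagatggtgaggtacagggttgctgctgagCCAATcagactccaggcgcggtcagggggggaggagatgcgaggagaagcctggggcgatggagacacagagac
Wnt5b promoter: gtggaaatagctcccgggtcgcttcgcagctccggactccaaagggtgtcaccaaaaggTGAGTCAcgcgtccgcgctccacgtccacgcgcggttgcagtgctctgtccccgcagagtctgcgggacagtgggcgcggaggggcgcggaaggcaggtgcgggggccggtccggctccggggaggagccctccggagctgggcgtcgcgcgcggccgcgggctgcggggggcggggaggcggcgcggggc
Wnt1 promoter: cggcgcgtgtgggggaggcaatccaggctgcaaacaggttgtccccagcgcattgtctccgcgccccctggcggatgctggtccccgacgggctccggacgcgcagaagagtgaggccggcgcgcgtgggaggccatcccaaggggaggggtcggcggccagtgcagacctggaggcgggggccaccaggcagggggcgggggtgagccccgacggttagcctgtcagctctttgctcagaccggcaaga
Wnt10b promoter: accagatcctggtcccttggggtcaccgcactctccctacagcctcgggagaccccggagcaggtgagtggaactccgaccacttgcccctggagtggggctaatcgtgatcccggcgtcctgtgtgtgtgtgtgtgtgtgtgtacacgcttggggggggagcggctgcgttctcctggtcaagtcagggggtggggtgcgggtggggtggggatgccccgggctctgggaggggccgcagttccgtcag
The Wnt16 window held 2 matches to CCAAT, a motif found in 33.8% of 32817 such windows, and the Wnt5b window held 1 match to TGANTCA, found in 6.75%. Of the other Wnt5b windows, that at chr6:119449387-119449636 held 1 match to CTTTGA and that at chr6:119467212-119467461 none. No match was found in the windows of Wnt1 and Wnt10b for any of the 5 motifs, of which TGTGGT was found in 14%, CTTTGA in 13.8% and TATAAA in 12.4% of all windows. No match overlapped another, CCAAT was added to the search after the sequences were seen, and a match describes these letters only. The Wnt16 window had a GC content of 59.2% with 9 CpG, against 75.2% with 35 CpG for Wnt5b, 71.6% with 23 CpG for Wnt1 and 66.8% with 14 CpG for Wnt10b (median of all windows 52.4% with 6 CpG). Of the 10 ligands, 7 had a window in the table of promoters.

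Wnt10a lies on the plus strand at chr1:74791516-74804179 and acts through beta-catenin in tooth and skin appendages. Its level was low, 0.0602 to 0.390 CPM (median 0.157) in young mice, 0.0458 to 1.5 CPM (median 0.296) in old vehicle mice and 0.0846 to 0.528 CPM (median 0.287) in old AP mice, or 2 to 67 counts per library. The groups overlapped, with 5 of 13 old vehicle mice above the highest young mouse and 1 below the lowest. The log2 fold change between old vehicle and young mice was 1.20 ± 0.36 (SE, adjusted p = 0.0166, edgeR's quasi-likelihood test). Without mouse JF6, the highest of the old vehicle group, it was 0.86 and the call was lost (adjusted p = 0.0636).

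Wnt7b lies on the minus strand at chr15:85535439-85581821 and is known for promoting bone formation. Its level ran from 0.0799 to 0.976 CPM (median 0.241) in young mice and from 0.0915 to 9.51 CPM (median 0.352) in old vehicle mice, and from 0.0433 to 1.10 CPM (median 0.241) in old AP mice. The highest old vehicle value belonged to mouse JF16, which had 405 counts and held 66.2% of the summed CPM of its group, while the next highest old vehicle mouse had 0.739 CPM, below the highest young mouse. Of the 13 old vehicle mice, 12 were above the young median. The call (log2 fold change 1.81 ± 0.57 SE, adjusted p = 0.0218, edgeR's quasi-likelihood test) rested on that mouse. Without it the log2 fold change was 0.36 (adjusted p = 0.580), and DESeq2, which by default replaces outlying counts, gave 0.33 (adjusted p = 0.618) with all mice. The call was also lost with the skeletal muscle covariate (1.39, adjusted p = 0.0600) and the marrow covariate (0.61, adjusted p = 0.319). Wnt7b and the antisense RNA gene AU022754 share 324 exonic bases in GENCODE vM21, and AU022754 had 6 counts in mouse JF16, so that its counts were few beside those of Wnt7b there.

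The remaining 6 ligands did not pass the threshold between old vehicle and young mice. Wnt11, a ligand known for its part in cell movement during development, had a log2 fold change of 0.52 ± 0.24 (SE, adjusted p = 0.123), and Wnt2b, which acts through beta-catenin, had 0.52 ± 0.37 (adjusted p = 0.346, edgeR's quasi-likelihood test for all 6). Wnt4, which is needed for kidney development, had -0.32 ± 0.19 (adjusted p = 0.240) and Wnt5a, needed for limb outgrowth, had -0.29 ± 0.18 (adjusted p = 0.267). Wnt5b, with -0.05 ± 0.22 (adjusted p = 0.900), and Wnt10b, with 0.24 ± 0.22 (adjusted p = 0.479), lay nearest to 0. The 95% interval of the Wnt5b log2 fold change was -0.49 to 0.39 and that of Wnt10b was -0.20 to 0.69. With the osteoblast covariate Wnt10b was called higher (0.55, adjusted p = 0.0232), and leaving out young mouse JF31 or JF40 gave a call of Wnt11 as higher, with an adjusted p as low as 0.0411. Without mouse JF16 the log2 fold change of Wnt11 was 0.37, and with the skeletal muscle covariate 0.29.

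**Figure D2:**
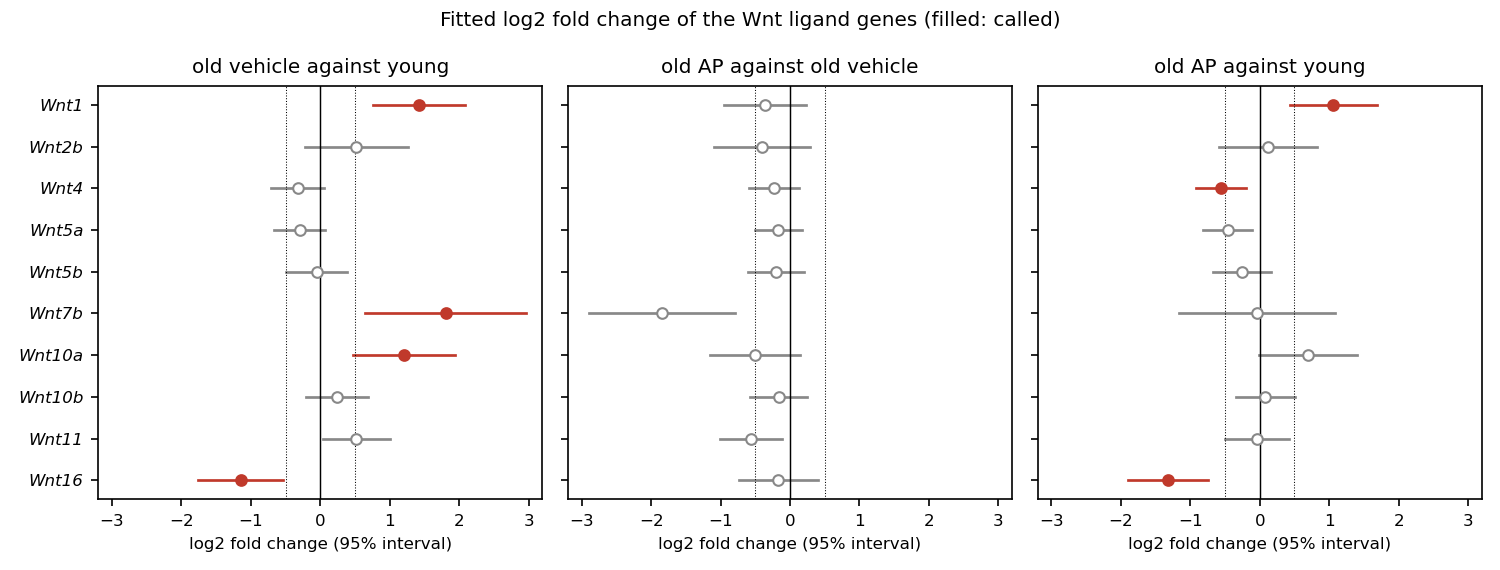
Fitted log2 fold change of each ligand gene (points) with its 95% interval (lines) in the 3 comparisons, where filled points are called (adjusted p under 0.05 and log2 fold change beyond 0.5, dotted lines). Wnt1 is called higher and Wnt16 lower in both comparisons of old with young mice, and all 10 points lie left of 0, none of them called, between old AP and old vehicle mice.

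The comparison of old AP with old vehicle mice asked what changed when the transgene was activated in old mice. None of the 10 ligands was called, higher or lower, where 0.0259% of all tested genes were called higher and 0.0467% lower, or 14 genes in all. That background was unstable, since DESeq2 called 202 genes and leaving out 1 mouse gave 0 to 405. At an unadjusted p under 0.05, edgeR's quasi-likelihood test gave 2 of the 10 ligands, Wnt7b and Wnt11, where 23.95% of all tested genes were under it, and DESeq2 called 0 of the 10. All 10 log2 fold changes were below 0, with a median of -0.30, against 49.4% of all tested genes above 0 and a median of -0.0037. The values are not independent, since the ligands varied together from mouse to mouse. Without mice JF18 and JF19 all 10 were still below 0, with a median of -0.16, and with the osteoblast covariate 9 were below 0, with a median of -0.13.

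Wnt7b had the largest difference, a log2 fold change of -1.85 ± 0.52 (SE, adjusted p = 0.0580, edgeR's quasi-likelihood test), which was -0.40 (adjusted p = 0.556) without mouse JF16. Wnt11 ran from 1.60 to 6.64 CPM (median 2.90) in old vehicle mice and from 1.10 to 4.09 CPM (median 1.82) in old AP mice, after 0.916 to 4.30 CPM (median 1.96) in young mice. Of the 16 old AP mice, 14 were below the old vehicle median. Its log2 fold change was -0.56 ± 0.22 (SE, adjusted p = 0.123, edgeR's quasi-likelihood test), with a 95% interval of -1.01 to -0.12. Without mouse JF16 it was -0.41 (adjusted p = 0.286), and with the skeletal muscle covariate -0.25. The skeletal muscle sum had a median of 75343 CPM in old vehicle and 51858 CPM in old AP mice, and its part in the difference was not tested.

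The ligands called between old vehicle and young mice did not pass the threshold here. Wnt1 had a log2 fold change of -0.36 ± 0.29 (SE, 95% interval -0.95 to 0.23, adjusted p = 0.448), Wnt16 -0.17 ± 0.28 (-0.74 to 0.40, adjusted p = 0.724) and Wnt10a -0.50 ± 0.32 (-1.16 to 0.15, adjusted p = 0.336, edgeR's quasi-likelihood test). The young level lies below the old vehicle level for Wnt1 and above it for Wnt16, so that the end of the interval nearest to the young level is -0.95 for Wnt1 and 0.40 for Wnt16. Wnt2b, Wnt4, Wnt5a, Wnt5b and Wnt10b had log2 fold changes of -0.40 to -0.17, with adjusted p of 0.419 to 0.629.

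Old AP mice were also compared with young mice, a comparison that shares its groups with the other two. Here 1 ligand was called higher (Wnt1), where 3.73% of all tested genes were called higher, and 2 were called lower (Wnt4 and Wnt16), where 4.85% were. Wnt1 had a log2 fold change of 1.06 ± 0.31 (SE, adjusted p = 0.0157), with 10 of 16 old AP mice above the highest young mouse, and Wnt16 had -1.32 ± 0.29 (adjusted p = 0.00129, edgeR's quasi-likelihood test), with 14 of 16 below the lowest young mouse. Both calls held when any 1 mouse was left out and without mice JF18 and JF19, where Wnt16 had -1.15 (adjusted p = 0.0011). With the cartilage covariate Wnt16 again lost its call (-0.97, adjusted p = 0.0665).

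Wnt4 lies on the plus strand at chr4:137277489-137299726 and ran from 21.8 to 51.5 CPM (median 35.7) in young mice, from 15.4 to 43.1 CPM (median 29.1) in old vehicle mice and from 7.71 to 48.7 CPM (median 23.2) in old AP mice. The groups overlapped, with 6 of 16 old AP mice below the lowest young mouse and 15 of 16 below the young median. The log2 fold change between old AP and young mice was -0.55 ± 0.18 (SE, adjusted p = 0.0278, edgeR's quasi-likelihood test). The call was lost without mouse JF19 or young mouse JF30, without mice JF18 and JF19 (-0.45, adjusted p = 0.0541), and with the osteoblast (-0.17, adjusted p = 0.598) or cartilage covariate (-0.17, adjusted p = 0.642). Wnt5a, at 7.20 to 12.7 CPM (median 11.1) in young and 2.87 to 14.2 CPM (median 7.63) in old AP mice, had a log2 fold change of -0.46 ± 0.17 (adjusted p = 0.0545), just outside the threshold, and was called lower without mouse JF10, JF12, JF27 or JF39 and with the marrow (-0.52, adjusted p = 0.00149) or osteocyte covariate. With the osteoblast covariate it was -0.08, with the cartilage covariate -0.10, and without mice JF18 and JF19 -0.35.

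Wnt1 and Wnt10b are neighbours on chromosome 15. They are transcribed away from each other, with start sites 11707 bases apart and no annotated gene between them in GENCODE vM21. Wnt10b, at 98771753 to 98778150 on the minus strand, ran from 11.1 to 21.5 CPM (median 16.5) in young, from 9.27 to 35.9 CPM (median 17.7) in old vehicle and from 3.9 to 36.1 CPM (median 16.2) in old AP mice, ranges that overlapped throughout. The ratio of their raw counts within a library needs no scaling. Wnt1 counts per Wnt10b count ran from 0.0221 to 0.111 (median 0.0763) in young, from 0.0447 to 0.290 (median 0.146) in old vehicle and from 0.0537 to 0.272 (median 0.152) in old AP mice. In 10 of 13 old vehicle and 13 of 16 old AP mice the ratio was above that of every young mouse.

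Wnt16 and Wnt5b lie apart on chromosome 6, and Wnt5b, at chr6:119432531-119544347 on the minus strand, ran from 16.5 to 32 CPM (median 21.7) in young, from 14.2 to 31.8 CPM (median 22.3) in old vehicle and from 4.22 to 40.7 CPM (median 19) in old AP mice. Wnt16 counts per Wnt5b count ran from 0.418 to 0.852 (median 0.607) in young, from 0.164 to 0.413 (median 0.284) in old vehicle and from 0.172 to 0.567 (median 0.254) in old AP mice. All 13 old vehicle mice and 14 of 16 old AP mice were below every young mouse. The mean log2 ratio differed by -1.08 ± 0.15 (SE) between old vehicle and young mice and by -0.04 ± 0.16 between old AP and old vehicle mice. Both pairs were chosen after their values were seen, so that these ratios are given as a description, and the permutation tests computed on them are not used as support.

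**Figure D3:**
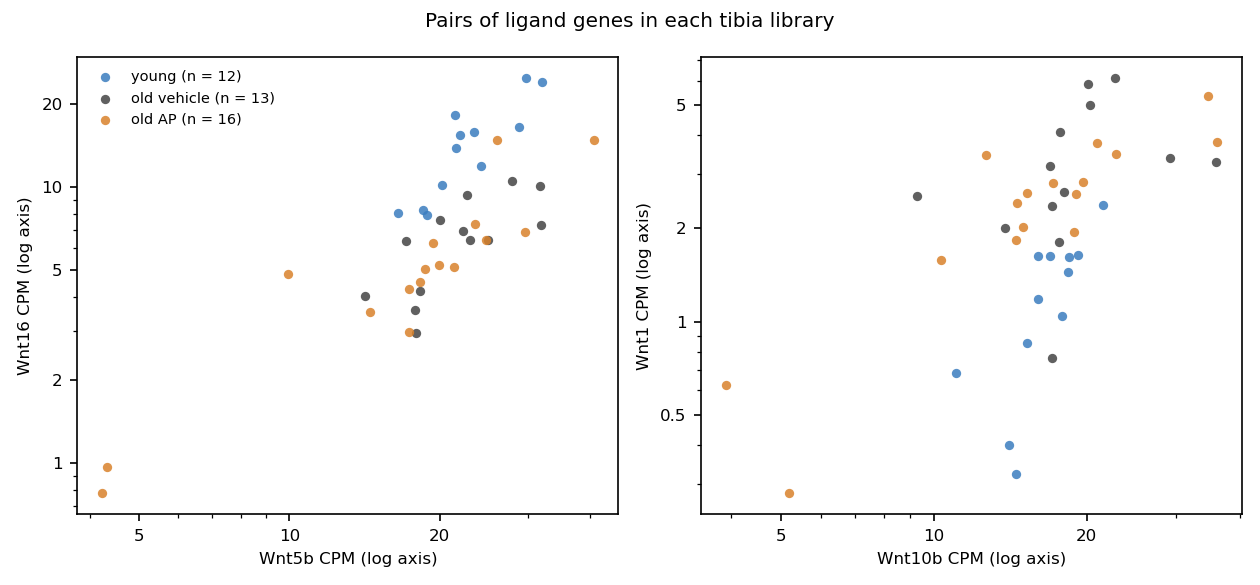
Wnt16 against Wnt5b (left) and Wnt1 against Wnt10b (right), in CPM on log axes, with 1 point per library coloured by group. At a given Wnt5b level the young mice lie above all 13 old vehicle and 14 of 16 old AP mice in Wnt16, at a given Wnt10b level most old mice lie above the young mice in Wnt1, and mice JF18 and JF19 fall at the lower left of both plots.

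Which ligands varied together among mice of a group was measured as the correlation of log2 CPM after the group means were removed. All 45 pairs had a Pearson r above 0 over the 41 mice (median 0.42), and 31 of 45 passed an adjusted p of 0.05 by a permutation test within groups (100000 resamples, two-sided, adjusted over the 45 pairs). The highest was between Wnt5b and Wnt10b, with r = 0.89 and Spearman's rho = 0.78 (permutation p = 1e-05 for both, the smallest the resamples can give, adjusted p = 6.43e-05 and 5.62e-05). Wnt5b and Wnt16 followed with r = 0.89 and rho = 0.82, and Wnt5a was correlated with Wnt5b (r = 0.84, rho = 0.72), Wnt16 (r = 0.82, rho = 0.76) and Wnt10b (r = 0.81, rho = 0.66), each with the same permutation p. The share of pairs that would pass among all tested genes was not computed.

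Mice JF18 and JF19 were the farthest from the median for these genes and raised the values. Without the 2 farthest mice r was 0.79 for Wnt5b with Wnt10b, 0.78 for Wnt5b with Wnt16 and 0.76 for Wnt5a with Wnt5b. With JF18 and JF19 left out of all pairs, 21 of 45 passed, and Wnt1 with Wnt2b had r = -0.04. Wnt10b with Wnt16, at r = 0.77 with all mice, had r = 0.54 without them, while Wnt4 with Wnt5a, also at r = 0.77 with all mice, had 0.66. Within young mice alone r was 0.56 for Wnt5b with Wnt10b and 0.87 for Wnt5b with Wnt16, within old vehicle mice 0.71 and 0.74, and within old AP mice 0.96 and 0.93. The old AP values include JF18 and JF19, and values of this group without them were not computed. Wnt1 was correlated with Wnt5b (r = 0.75, rho = 0.69, adjusted permutation p = 6.43e-05 and 5.62e-05) and with its neighbour Wnt10b (r = 0.71, rho = 0.74, adjusted permutation p = 1e-04 and 5.62e-05). Without JF18 and JF19 these r were 0.54 and 0.51. Wnt10a had low pooled values, with r of 0.01 to 0.17 with 8 of the other ligands and 0.39 with Wnt2b (rho = 0.23, adjusted permutation p = 0.0465 and 0.233). The groups differed here in value. Within old vehicle mice Wnt10a had r = 0.63 with Wnt5b and 0.48 with Wnt10b, within young mice 0.42 and 0.32, and within old AP mice -0.09 and -0.23, and these differences were not tested.

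**Figure D4:**
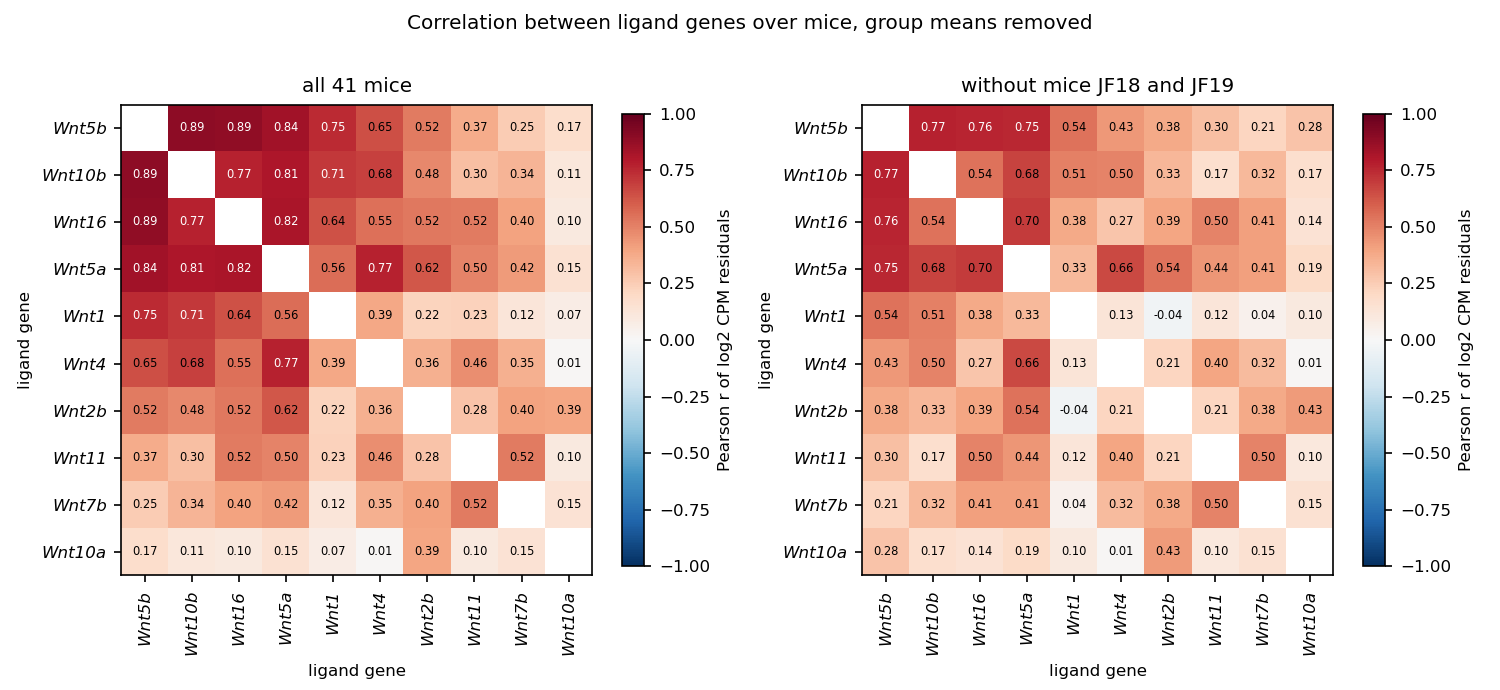
Pearson r between ligand genes over mice (colour and number, from -1 to 1), from log2 CPM with the group means removed, in all 41 mice (left) and without mice JF18 and JF19 (right). Wnt5b, Wnt10b, Wnt16 and Wnt5a form the darkest block with all mice, from 0.77 to 0.89, while without JF18 and JF19 their values run from 0.54 (Wnt10b with Wnt16) to 0.77 and Wnt4 with Wnt5a, at 0.77 with all mice, has 0.66. Wnt10a has the palest row with all mice.

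The ligands were then set against the summed levels of 15 lists of cell type markers, 150 relations in all, tested and adjusted in the same way. Wnt5b followed the osteocyte sum, with r = 0.89 and rho = 0.75 (permutation p = 1e-05 for both, adjusted p = 0.000115 and 3e-04), and r = 0.77 without the 2 farthest mice, JF18 and JF19. Wnt10b (r = 0.79, rho = 0.61), Wnt16 (r = 0.78, rho = 0.55), Wnt5a (r = 0.71, rho = 0.50) and Wnt1 (r = 0.67, rho = 0.57) were likewise correlated with the osteocyte sum (adjusted permutation p at most 2e-04 for r and 0.0133 for rho), and without the 2 farthest mice r was 0.61, 0.60, 0.54 and 0.44. The osteocyte list holds the Wnt antagonists Sost and Dkk1. With the osteocyte sum removed along with the group means, 24 of the 45 ligand pairs passed, of which 22 had passed before and 2 were gained (Wnt5b with Wnt7b and Wnt10b with Wnt11), and Wnt5b with Wnt10b had r = 0.69. The relation was not limited to osteocyte markers. In all, 7 of the 10 ligands passed with the osteocyte sum, 7 with the osteoblast sum and 7 with the endothelial sum, all with r above 0. These counts include mice JF18 and JF19, and the share of all tested genes that would pass with these sums was not computed. Without them r fell from 0.45 to 0.08 for Wnt1 with the endothelial sum, from 0.53 to 0.27 for Wnt4 and from 0.45 to 0.28 for Wnt2b with the osteocyte sum, and from 0.43 to 0.26 for Wnt16 with the osteoblast sum. Wnt5a had a higher r with the endothelial sum (r = 0.73, rho = 0.66) than with the osteocyte sum, and Wnt5b (r = 0.74), Wnt10b (r = 0.73), Wnt16 (r = 0.65) and Wnt2b (r = 0.64) followed it too, with adjusted permutation p of 0.000115 to 0.000929 over these 5. Without JF18 and JF19 the endothelial r was 0.56 for Wnt5a, 0.48 for Wnt5b, 0.50 for Wnt10b, 0.36 for Wnt16 and 0.55 for Wnt2b. Wnt10b had r = 0.68 and Wnt5b r = 0.65 with the osteoblast sum, and 0.65 and 0.64 without JF18 and JF19.

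Wnt11 followed other markers, with r = 0.76 and rho = 0.78 with the skeletal muscle sum (permutation p = 1e-05 for both, adjusted p = 0.000115 and 3e-04), and r = 0.74 without the 2 farthest mice. The relation was not limited to muscle markers. Wnt11 had r = 0.70 and rho = 0.70 with the epidermis and hair sum (adjusted permutation p = 0.000115 and 5e-04). Among other lists that passed, Wnt11 had r = 0.54 with the adipocyte, -0.64 with the marrow stroma and -0.57 with the erythroid sum. It was negatively correlated with the neutrophil sum (r = -0.68, rho = -0.68, adjusted permutation p = 0.000115 and 3e-04). In all, 7 of the 10 ligands passed with the neutrophil sum, each with r below 0, and the share of all tested genes that would pass was not computed. The neutrophil sum was negatively correlated also with Wnt7b (r = -0.63), Wnt16 (r = -0.60), Wnt10b (r = -0.54) and Wnt5b (r = -0.48), with adjusted permutation p of 0.000375 to 0.00671. Without JF18 and JF19 these r were -0.62, -0.48, -0.39 and -0.30, and without JF16 and JF19 that of Wnt7b was -0.46. The sum was also negatively correlated with Wnt5a (r = -0.72, rho = -0.70) and Wnt4 (r = -0.69, rho = -0.59), with an adjusted permutation p of 0.000115 for both r. Without the 2 farthest mice, JF16 and JF19, the 3 values of r were -0.60 for Wnt11, -0.65 for Wnt5a and -0.62 for Wnt4. The part of marrow content in these correlations was not tested. With the marrow covariate Wnt1, Wnt10a and Wnt16 kept their calls between old vehicle and young mice and Wnt7b lost its call (0.61, adjusted p = 0.319).

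**Figure D5:**
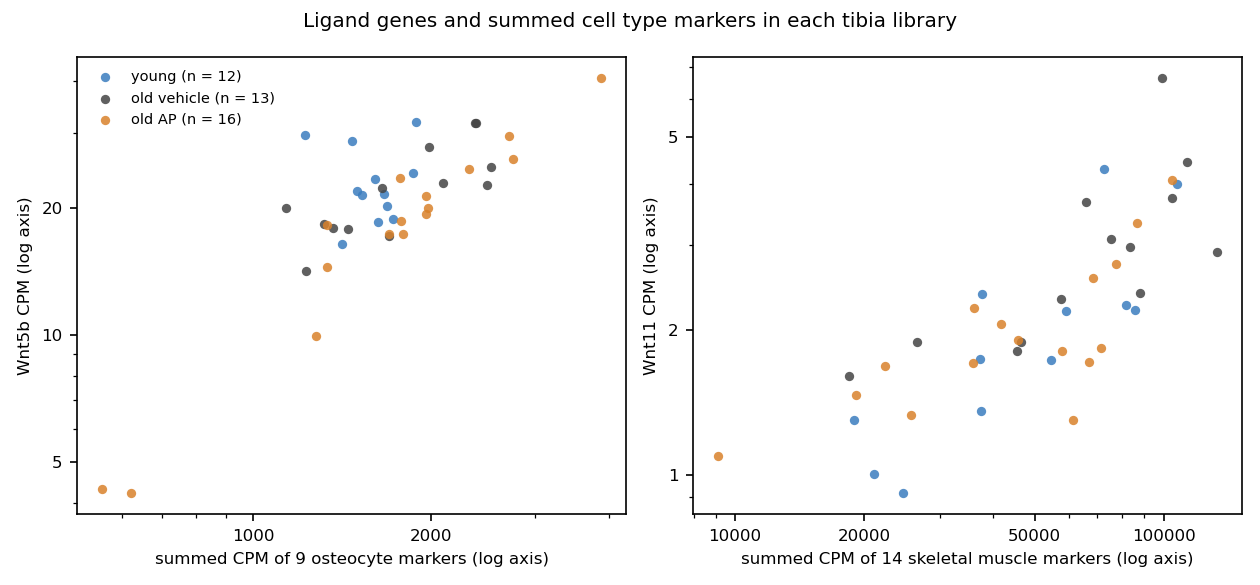
Wnt5b against the summed level of 9 osteocyte markers (left) and Wnt11 against that of 14 skeletal muscle markers (right), in CPM on log axes, with 1 point per library coloured by group. Over the 41 mice both ligands rise with the marker sum (r = 0.89 and 0.76 after removal of group means), and the lowest points on the left are old AP mice JF18 and JF19 at osteocyte sums of 555 and 621 CPM.

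For each ligand the 3 genes most like it were sought among 15533 genes whose mean level reached 1 CPM, by the same r over the 41 mice, as a description. Wnt5b was most like Irx5 (r = 0.96, rho = 0.89), a homeobox gene that is in the osteocyte list, then Magi1 (r = 0.95) and Prr15 (r = 0.94). Wnt10b was most like Pdgfa (r = 0.91, rho = 0.79), Irx5 (r = 0.91) and Lamc3 (r = 0.90), and Wnt16 most like Ackr3 (r = 0.90, rho = 0.80), Tgfb2 (r = 0.87) and Ptprm (r = 0.87). Wnt5a was most like Ryk (r = 0.93, rho = 0.90), which encodes a Wnt receptor that binds Wnt5a, followed by Neo1 and Lamc1 (r = 0.92 for both). Wnt1 was most like Adamtsl2 (r = 0.85, rho = 0.80), Prr15 and Sowahb (r = 0.79 for both). Without mice JF18 and JF19 the r of these genes, in the order named, were 0.75, 0.64 and 0.61 for Wnt1. They were 0.79, 0.75 and 0.72 for Wnt16 and 0.84, 0.81 and 0.80 for Wnt10b. For Wnt5b they were 0.90, 0.89 and 0.85, and for Wnt5a 0.91, 0.87 and 0.88.

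Wnt4 was most like Hoxa7 (r = 0.86, rho = 0.77), Rhpn2 (r = 0.85) and Pard3 (r = 0.84). Wnt11 was most like Rgma (r = 0.89, rho = 0.90), Adamtsl5 and Tmem161a (r = 0.89 for both). For the low ligands the nearest genes were less alike. Wnt2b was nearest to Pcdh1 (r = 0.71, rho = 0.75), Stra6 and Wscd1, Wnt7b to Atoh8 (r = 0.75, rho = 0.56), Csrp2 and Ier3, and Wnt10a to Itih5 (r = 0.61, rho = 0.54), Fcer2a and Tmem158. These nearest genes were picked as the highest of many, which by itself gives high values. Without JF18 and JF19 the first gene named had r = 0.79 for Wnt4 and 0.89 for Wnt11. It had 0.66 for Wnt2b, 0.76 for Wnt7b and 0.63 for Wnt10a.

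The other 9 mouse Wnt ligand genes were mostly silent at this depth. Wnt3, Wnt3a, Wnt7a, Wnt8a, Wnt8b and Wnt9b had too few reads for a test, with at most 13 counts in any library. Of the 3 tested, 1 was called higher between old vehicle and young mice, as were 4.30% of all tested genes. This was Wnt6, which lies 6193 bases before Wnt10a on the same strand of chromosome 1. Wnt6 ran from 0.0639 to 0.444 CPM (median 0.234) in young, from 0.0494 to 0.985 CPM (median 0.489) in old vehicle and from 0.103 to 1.18 CPM (median 0.362) in old AP mice, with 8 of 13 old vehicle mice above the highest young mouse. Its log2 fold change between old vehicle and young mice was 1.06 ± 0.36 (SE, adjusted p = 0.0299), against 1.20 for Wnt10a. Wnt9a, which takes part in joint formation, was the most abundant of the 9, at a median of 8.77 CPM in young, 10.5 in old vehicle and 8.26 in old AP mice, and had a log2 fold change of 0.58 ± 0.24 (adjusted p = 0.0856). Wnt2 had -0.56 ± 0.49 (adjusted p = 0.457, edgeR's quasi-likelihood test for all 3).

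The genes that make and receive Wnt ligands were called at few places between old vehicle and young mice, where 9.06% of all tested genes were called and 31.8% had an unadjusted p under 0.05. Among 9 genes for acylation and secretion none was called (4 at an unadjusted p under 0.05, 0 called by DESeq2), and the same held for 9 co-receptors (4 and 0), 14 beta-catenin transducers (6 and 0) and 9 tested beta-catenin target genes (4 and 0), by edgeR's quasi-likelihood test. Of 10 Frizzled receptor genes edgeR called 1 and DESeq2 2, where DESeq2 called 2116 of 32309 genes in all. The gene called by edgeR was Fzd10, with a log2 fold change of 1.14 ± 0.39 (SE, adjusted p = 0.0344) from a mean of 0.379 to 0.830 CPM. Of all 19292 tested genes 3736 (19.4%) had an adjusted p under 0.05 at any fold, and 1748 of those were called, the others having a log2 fold change within 0.5. Further genes of these lists likewise had an adjusted p under 0.05 with a log2 fold change within 0.5. These were 2 of the 9 genes for acylation and secretion, 3 Frizzled genes, 1 co-receptor, 4 transducers and 1 target gene, among them the kinase gene Gsk3a (log2 fold change 0.42 ± 0.05 SE, adjusted p = 4.47e-07), Snx3 (0.29 ± 0.05, adjusted p = 2.61e-05), the carrier gene Wls (-0.23 ± 0.05, adjusted p = 0.00219) and Axin2 (0.40 ± 0.13, adjusted p = 0.0270, edgeR's quasi-likelihood test). The median log2 fold changes of these 5 lists lay between -0.06 and 0.15.

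More calls were found among the secreted regulators, beside the 4.30% of all tested genes called higher and 4.76% called lower. Of 8 tested R-spondin genes and receptors edgeR called 2 and DESeq2 4, where DESeq2 called 2116 of 32309 genes in all. Rspo2, whose product enhances Wnt signalling, fell from a mean of 7.13 to 3.27 CPM (log2 fold change -1.13 ± 0.21, adjusted p = 0.000159), and the receptor gene Lgr6 rose from 14.1 to 22 CPM (0.64 ± 0.15, adjusted p = 0.00166). Of 12 tested secreted antagonists 3 were higher (Sost, Dkk2 and Notum) and 3 lower (Dkk3, Frzb and Sfrp4), by edgeR's quasi-likelihood test. Notum, which removes the lipid from Wnt ligands, rose from a mean of 1.90 to 6.62 CPM (1.80 ± 0.31, adjusted p = 8.75e-05). Dkk2, an inhibitor that binds Lrp6, rose from 4.29 to 9.32 CPM (1.12 ± 0.34, adjusted p = 0.0181), and Dkk3 fell from 62.1 to 26.6 CPM (-1.22 ± 0.17, adjusted p = 6.01e-06). Between old AP and old vehicle mice edgeR called 0 genes in these 7 lists, with 0 to 3 genes per list at an unadjusted p under 0.05. Of all tested genes 0.0726% were called there and 23.95% had an unadjusted p under 0.05. DESeq2 called 1 co-receptor gene and 1 gene of the R-spondin list, and 202 of 32309 genes in all. Between old AP and young mice, where 3.73% of all tested genes were called higher and 4.85% lower, edgeR called 3 co-receptor genes lower (Lrp5, Lrp4 and Gpr124), 1 Frizzled gene higher (Fzd10) and 1 lower (Fzd8), and again Lgr6 higher and Rspo2 lower. Sost, Sostdc1 and Notum were higher and Dkk3, Frzb and Sfrp4 lower among the antagonists in that comparison.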

How the data were processed

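The members, gene lists and tests were chosen with earlier results of these data known. The authors deposited raw read counts per gene, with 41 count columns and a gene length. The submitters' processing notes name TopHat2 2.0.6, HTSeq and the build GRCm38. The strand setting of the counting was not given in the sources used here, so that Wnt5a, Wnt7b and Wnt11, which share exonic bases with an antisense gene, are uncertain, although those genes had at most 14 counts in any library. Groups were taken from the labels. Nothing in the labels ties replicate mice to litters or batches, and no pair of mice within a group agreed within sampling noise (lowest ratio of observed to Poisson variance 30.7).

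Counts were analysed in R 4.3.3 with edgeR 4.0.16 (TMM, filterByExpr, 19292 of 43346 genes, quasi-likelihood test in 1 model of the 3 groups, Benjamini-Hochberg adjustment over all tested genes). SE is the log2 fold change divided by the square root of F. Log2 CPM used a prior count of 2. Correlations and permutations were run in Python 3.11.15 with NumPy 2.4.6 and SciPy 1.17.1. DESeq2 1.42.0, its size factors in edgeR, no filter, models of 2 groups, adjusted p alone, leaving out each mouse, and marker sums as covariates (skeletal muscle, cartilage, marrow, osteoblast) were the alternatives. Leaving out mouse JF16, leaving out mice JF18 and JF19, and the osteocyte covariate were added after the data were seen. Both the fit and the permutation test were tested on simulated data.

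All 19 Wnt ligand genes are named. From each other pathway list the 3 genes with the largest absolute log2 fold change among those called between old vehicle and young mice are given with values, plus any called between old AP and old vehicle mice. For each ligand the 3 genes with the highest r are named. Other members of a count of 5 or fewer were named after their values were seen. In all, 4 list genes were matched by identifier and the others by symbol. Promoters are RefSeq windows.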

Additional observations from a re-analysis of the deposited data

How the results depend on the processing

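Between old vehicle and young mice the count of called ligands, 4 in the reported fit, was 3 to 5 under every alternative and 3 (without JF6 or JF16) to 5 (without JF31 or JF40) when 1 mouse was left out, and Wnt1 and Wnt10a were called under each alternative other than leaving out mouse JF6, which ended the call of Wnt10a. The calls over all tested genes, 1748 in the reported fit, ran from 1269 with the cartilage covariate to 3736 with adjusted p alone. They were 1500 to 1975 when 1 mouse was left out. Between old AP and old vehicle mice the count was 0 under every other alternative and ranged from 0 to 2 when 1 mouse was left out: Wnt7b was called lower without mouse JF2, JF9, JF10 or JF14, each time with mouse JF16 in the fit, and Wnt11 without JF9. In those fits the calls over all tested genes rose from 14 to 312 (without JF2), 405 (JF9), 241 (JF10) and 107 (JF14). The cause was not tested. Between old AP and young mice the count, 3 in the reported fit, was 1 with the cartilage covariate and 5 with the osteocyte covariate, which added Wnt5a and Wnt5b as lower. It was 4 with the marrow covariate, which added Wnt5a. When 1 mouse was left out it was 2 (without JF19 or JF30, where Wnt4 was lost) to 4 (without JF10, JF12, JF27 or JF39, where Wnt5a was gained). The calls over all tested genes moved too. They were 1655 in the reported fit, 963 with the cartilage, 1943 with the osteocyte and 1958 with the marrow covariate, and 1416 to 1936 when 1 mouse was left out. Of the 45 correlations 31 passed, and 30 with a prior count of 0.5, 26 without the 2 farthest mice, 21 without mice JF18 and JF19 and 24 with the osteocyte sum removed. Other scalings moved the median of all genes by less than 0.1 on the log2 scale.

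Log2 fold changes that changed sign were all of ligands not called in that comparison. Between old vehicle and young mice these were Wnt4 (0.0018 with the cartilage covariate) and Wnt5b (0.31 with the cartilage and 0.26 with the osteoblast covariate, and -0.10 to 0.000596 when 1 mouse was left out). Between old AP and old vehicle mice it was Wnt10b (0.0025 with the osteoblast covariate). Between old AP and young mice, Wnt2b had -0.0019 with the marrow and -0.0683 with the osteocyte covariate (-0.0245 to 0.22 when 1 mouse was left out), Wnt5b 0.20 with the cartilage and 0.20 with the osteoblast covariate, Wnt7b 0.15 with the cartilage, 0.63 with the osteoblast and 0.10 with the osteocyte covariate and 0.0719 without JF18 and JF19 (-0.31 to 0.26 when 1 mouse was left out), Wnt10b -0.15 with the osteocyte covariate (-0.0277 to 0.15 when 1 mouse was left out), and Wnt11 0.0400 with the skeletal muscle covariate, 0.0115 with the osteoblast covariate and 0.0270 without JF18 and JF19 (-0.14 to 0.10 when 1 mouse was left out).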

Other observations

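The ligands differed in how much they varied among mice of a group. In young mice Wnt5a (coefficient of variation of CPM 15.1%), Wnt10b (16.5%), Wnt5b (20.9%) and Wnt4 (21.2%) varied least. The same 4 ligands had 27.9%, 34%, 25% and 30.2% in old vehicle mice and 41.5%, 49.4%, 46.8% and 40.3% in old AP mice. Without mice JF18 and JF19 the old AP values were 34.4%, 38.9%, 34.3% and 33.5%, still above those of young mice. Of the 10 ligands, 7 had a larger coefficient of variation in old vehicle than in young mice, and 7 in old AP than in young mice. The matching share of all tested genes was not computed. Wnt1 had about the same value in all 3 groups, 48.8%, 48% and 48.7%, and 35% in old AP mice without JF18 and JF19. These spreads were compared after the values were seen and were not tested.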
